A study of Homo sapiens with 6 samples.

Results

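The regions described here are the long, CpG-rich stretches of the authors' deposited region table for M07e cells: those with 20 or more sites, at least 8 sites per 100 bases, on chromosomes 1 to 22. Both limits use only the number of sites and the length of a region, and no methylation value. Of 35130 regions in the table, 961 (2.74%) met them, and these hold 9.31% of its sites. M07e is a human acute megakaryoblastic leukemia line that needs a cytokine to grow, here GM-CSF. DNA of 3 control libraries (genotype WT) and of 3 libraries with a CRISPR-based DNMT3B knockout was read by reduced representation bisulfite sequencing (RRBS), in which the enzyme MspI cuts at CCGG so that mostly CpG-rich fragments are read. The labels do not say whether the knockout is 1 clone or a pool, nor whether libraries of a group came from separate cultures. The table gives 1 mean methylation level per group and region. The spread between the 3 libraries and the read depth are therefore unknown, the levels below carry no replicate error and no test between libraries was possible.

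In mammalian DNA a methyl group sits mostly on the cytosine of a CpG, and the same CpG read on the opposite strand carries a second cytosine. DNMT3B is one of the enzymes that add methyl groups to unmethylated DNA, while DNMT1 copies the pattern after replication. Stretches dense in CpG, the CpG islands, often cover gene starts and are mostly unmethylated in normal cells. Islands of developmental genes that Polycomb proteins keep silent are a common place of methylation in leukemia.

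The group column named M07e_WT was taken as the control. The other, M07e_3883, is named by no label and was taken as the knockout because the study has no other genotype, so every direction below rests on that reading. A region was called when the q-value in the authors' deposited table was under 0.01 and the group means differed by at least 25 percentage points. How that q was derived is not given. At the regions compared here it rose with the authors' Kolmogorov-Smirnov p. At SLC6A20 that p was 3.72e-11 and q 1.36e-10, and at LRRC4 they were 0.311 and 0.868. It did not follow the Mann-Whitney p, which was 2.23e-07 at GAS1, where the Kolmogorov-Smirnov p was 0.00013 and q 0.00046. In 947 of the 961 regions the authors' Mann-Whitney p was under 0.1, the smallest p that a two-sided exact rank test of 3 libraries against 3 can give. Points other than whole libraries must have been counted, so a call does not measure the spread between libraries. Coordinates are those of the table on hg38, with the start counted from 1.

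What the table counts as a site was read from promoter sequence of the same build (RefSeq, GRCh38.p14). Of all regions, 2551 lay wholly inside a promoter window of 300 bases, and 49 of these were CpG-rich regions of 20 or more sites. With positions moved on by 1 base, the first and the last base of all 2551 regions fell on a CpG, against 1298 first bases and 1497 last bases without the move. In all 2551 the number of sites was at most the number of CpG cytosines on both strands together, and in 1930 it was above the number of CpG dinucleotides. A site is therefore a cytosine of 1 strand, and a CpG read on both strands counts as 2 sites. The 49 regions had a median of 23 sites over 15 CpG dinucleotides (range 10 to 42), a median of 1.52 sites per dinucleotide. The limit of 20 sites is thus reached by as few as 10 CpG dinucleotides, and 8 sites per 100 bases can be 4 dinucleotides per 100 bases.

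**Figure D1:**
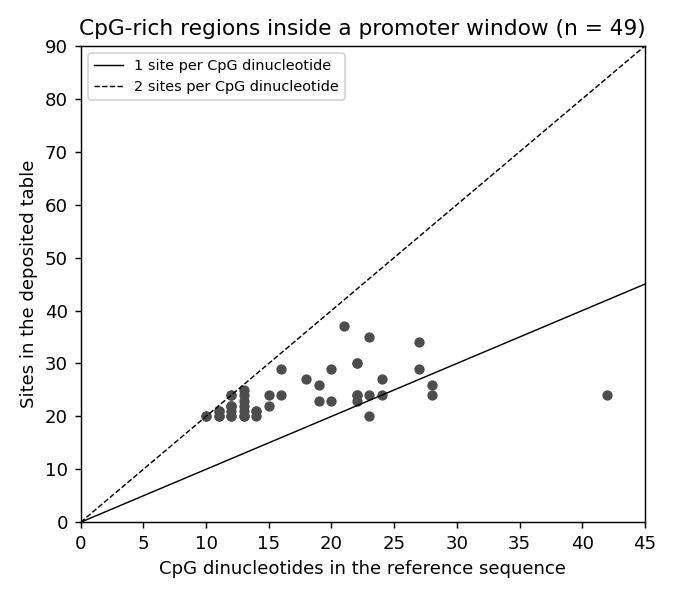
Number of sites in the deposited table (vertical axis) against the number of CpG dinucleotides in the reference sequence (horizontal axis) for the 49 CpG-rich regions that lie inside a promoter window. Points above the solid line (1 site per dinucleotide) hold sites of both strands; 44 of 49 lie above it and none lies above the dashed line at 2 sites per dinucleotide.

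The promoters below show the kind of sequence concerned. They are the coding-gene windows (250 bases before to 50 after a gene start) that overlap a called region by at least 100 bases, with the 2 losses that met this and 3 of the 4 largest gains. Each is written 5′ to 3′ along the gene, and capitals mark the CpGs that lie within the region.
MNX1 promoter, chr7:157010614-157010913, - strand: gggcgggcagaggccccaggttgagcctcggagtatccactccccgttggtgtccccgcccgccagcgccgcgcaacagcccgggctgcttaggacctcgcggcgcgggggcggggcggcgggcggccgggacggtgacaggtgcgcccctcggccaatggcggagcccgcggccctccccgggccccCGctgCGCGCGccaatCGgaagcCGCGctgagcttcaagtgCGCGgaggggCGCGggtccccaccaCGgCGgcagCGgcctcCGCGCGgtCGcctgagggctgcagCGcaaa
ATP8A2 promoter, chr13:25468524-25468823, + strand: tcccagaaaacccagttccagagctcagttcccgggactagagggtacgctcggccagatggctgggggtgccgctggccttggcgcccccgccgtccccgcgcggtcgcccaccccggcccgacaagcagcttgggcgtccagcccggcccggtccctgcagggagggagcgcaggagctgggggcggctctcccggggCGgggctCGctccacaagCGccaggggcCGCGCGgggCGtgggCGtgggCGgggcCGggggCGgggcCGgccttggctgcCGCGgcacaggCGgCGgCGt
TYMP promoter, chr22:50529963-50530262, - strand: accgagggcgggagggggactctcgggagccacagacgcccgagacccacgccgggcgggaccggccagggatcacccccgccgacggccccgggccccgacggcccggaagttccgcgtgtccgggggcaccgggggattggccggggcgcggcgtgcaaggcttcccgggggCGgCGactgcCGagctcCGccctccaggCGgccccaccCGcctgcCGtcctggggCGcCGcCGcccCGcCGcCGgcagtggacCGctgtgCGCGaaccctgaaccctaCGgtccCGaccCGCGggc
ARRDC2 promoter, chr19:18007920-18008219, + strand: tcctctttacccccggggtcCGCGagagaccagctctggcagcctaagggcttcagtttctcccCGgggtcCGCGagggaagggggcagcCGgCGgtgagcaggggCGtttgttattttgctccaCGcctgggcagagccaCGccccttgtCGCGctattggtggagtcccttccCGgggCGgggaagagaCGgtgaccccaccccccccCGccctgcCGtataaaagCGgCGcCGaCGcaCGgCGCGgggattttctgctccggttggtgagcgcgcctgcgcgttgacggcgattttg
RAB34 promoter, chr17:28717819-28718118, - strand: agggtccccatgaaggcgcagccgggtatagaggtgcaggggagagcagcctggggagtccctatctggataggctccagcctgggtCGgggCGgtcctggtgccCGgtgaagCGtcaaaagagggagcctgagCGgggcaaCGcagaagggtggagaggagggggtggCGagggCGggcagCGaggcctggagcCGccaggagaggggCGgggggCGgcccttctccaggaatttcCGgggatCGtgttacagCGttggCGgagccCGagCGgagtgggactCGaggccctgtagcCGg
The first is the start of MNX1, a homeobox gene of motor neurons and pancreas. It has 44 CpGs in 300 bases, 19 of them in the region, which went from 77.0% in control cells to 25.5% in knockout cells. ATP8A2, a phospholipid flippase gene, has 36 CpGs, 17 of them in a region that went from 45.1% to 15.99%. The other 3 are gains: TYMP, thymidine phosphorylase (11.4% in control cells to 50.001% in knockout cells, 20 capital CpGs), ARRDC2, an arrestin-domain gene (2.47% to 40.9%, 24), and RAB34, a small GTPase gene (3.57% to 37.7%, 20). The windows of losses and gains alike were rich in G and C (67.7% to 80.3%) and held 3 to 9 copies of CCGG, the MspI site, which reads the same on both strands.

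In all, 171 of the 961 regions overlapped a promoter window, and 192 windows were overlapped. Those 192 had a median of 36 CpG dinucleotides in 300 bases, an observed-to-expected CpG ratio of 0.895 and 74.2% G and C, against 14, 0.577 and 58.7% over all 34943 windows. CCGG was present in all 192 and in 63.1% of all windows. These are features that the rule on site density and the MspI cut select for. Of the 171 regions at promoter windows 62 were called (36.3%), 20 lower and 42 higher, against 318 of the other 790 (40.3%). The 790 include the 53 regions of chromosome 8, 20 of them called, for which promoter windows were not used here.

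The CpG-rich regions were mostly low in control cells and intermediate in knockout cells. In the authors' deposited table their median level was 5.94% in control cells (quartiles 0 and 21.9) and 32.9% in knockout cells (quartiles 30.1 and 41.6), and the median difference was 31.3 points (quartiles 21.7 and 32.9), with 787 regions higher in knockout cells and 174 not. Over all 35130 regions the medians were 7.59%, 30.9% and 17.4 points. A difference under 10 points was rare, with 18 of 961 (1.87%) against 23.8% of all regions. It was also rare, at 0.585%, in the 342 autosomal regions of 20 or more sites that were sparser, whose median difference was 31.1 points. The largest block, 528 regions, lay at 10% or less in control cells and between 25% and 50% in knockout cells. Regions that were intermediate or high in control cells were mostly lower in knockout cells. The control level is part of the difference, so a high start favors a loss by construction, and no conclusion is drawn from this split. Of 142 regions above 25% and up to 50% in control cells 35.9% were higher in knockout cells, and of 62 above 50% and up to 75% 16.1% were. None of the 14 above 75% was. Levels of the 2 groups had no common order across regions (Spearman's rho 0.0766 over 961 regions, which share libraries and are not replicates).

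**Figure D2:**
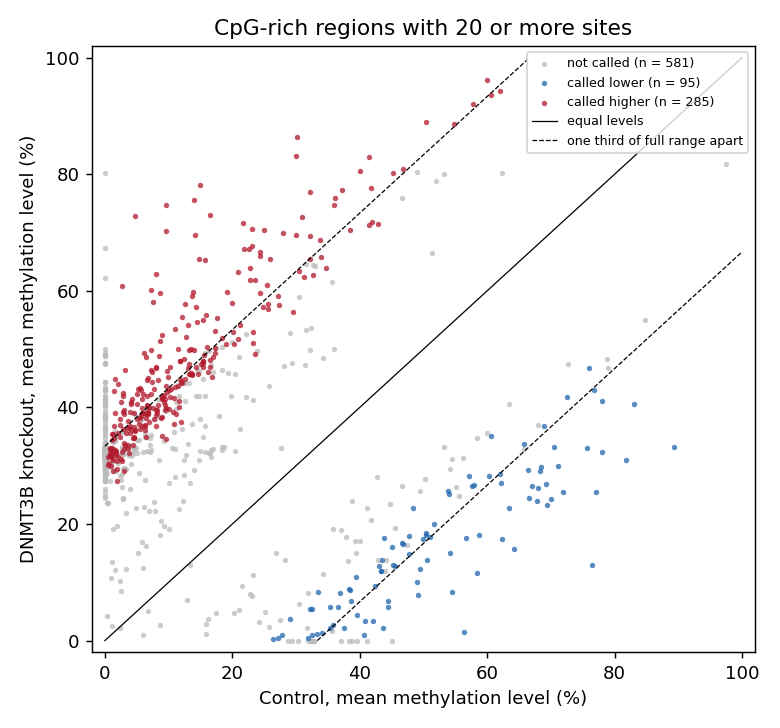
Mean methylation level in the DNMT3B knockout (vertical axis, %) against the control (horizontal axis, %) for the 961 CpG-rich regions; red points are the 285 called higher, blue the 95 called lower, grey the 581 not called. The solid line marks equal levels and the dashed lines a difference of 33.3 points, just inside the upper of which 471 regions lie; few points lie near equality.

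At the calling threshold, 380 of the 961 CpG-rich regions were called (39.5%, exact 95% binomial interval over regions 36.4 to 42.7), against 6.74% of all regions in the table. The interval treats regions as independent, although they share libraries, and does not measure the spread between libraries. Of these, 285 were higher in knockout cells and 95 lower, against 4.57% of all regions called higher and 2.17% called lower. The called gains went from a median of 9.33% in control cells to 44.3% in knockout cells over a median of 27 sites, and the called losses from 50.4% to 16.5% over 25 sites. The losses lay in shorter and denser regions (median 134 bases with 21.7 sites per 100 bases) than the gains (197 bases with 14.6). The share called also differed with the number of sites. Among regions as dense, 4.94% of those with 5 to 7 sites were called, 7.74% with 8 to 11, 17.9% with 12 to 19, 28.3% with 20 to 24, 45.3% with 25 to 29, 54.7% with 30 to 39 and 54.7% with 40 to 81. Regions of 20 or more sites that were sparser were called in 115 of 342 cases (33.6%), 9 lower and 106 higher. With a difference of at least 40 points, 77 regions (8.01%) were called against 3.42% of all regions. The part of the number of sites in the calls was not tested.

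**Figure D3:**
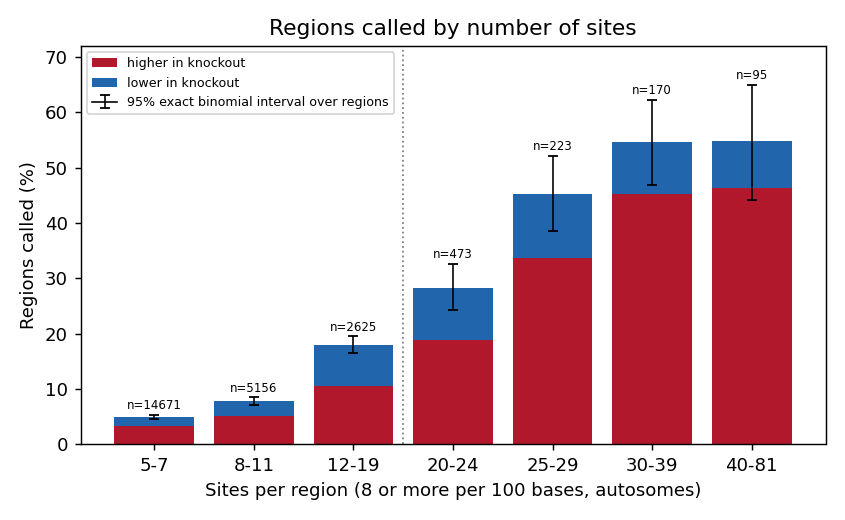
Share of regions called (vertical axis, %) by number of sites for autosomal regions with 8 or more sites per 100 bases, with gains in red, losses in blue and exact 95% binomial intervals over regions. Bars right of the dotted line are the CpG-rich regions of 20 or more sites; the share goes from 4.94% at 5 to 7 sites to 54.7% at 40 to 81.

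Differences piled up just below 33.3 points. Of the 961 regions, 471 (49.0%) were between 28 and 33.3 points higher in knockout cells, and 90 (9.37%) lay in the next interval of the same width, up to 38.7 points. Over all regions the shares were 26.0% and 3.80%, and in the sparser regions of 20 or more sites 56.7% and 10.5%. The same edge stood on the other side, with 61 regions 28 to 33.3 points lower and 16 in the next interval. Among the 285 called gains 142 lay in the interval below 33.3 points and 68 in the next one. A mean over 3 libraries moves by at most 33.3 points when 1 library changes over its full range, but levels of single libraries were not analysed here, and the part of any 1 library was not tested.

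**Figure D4:**
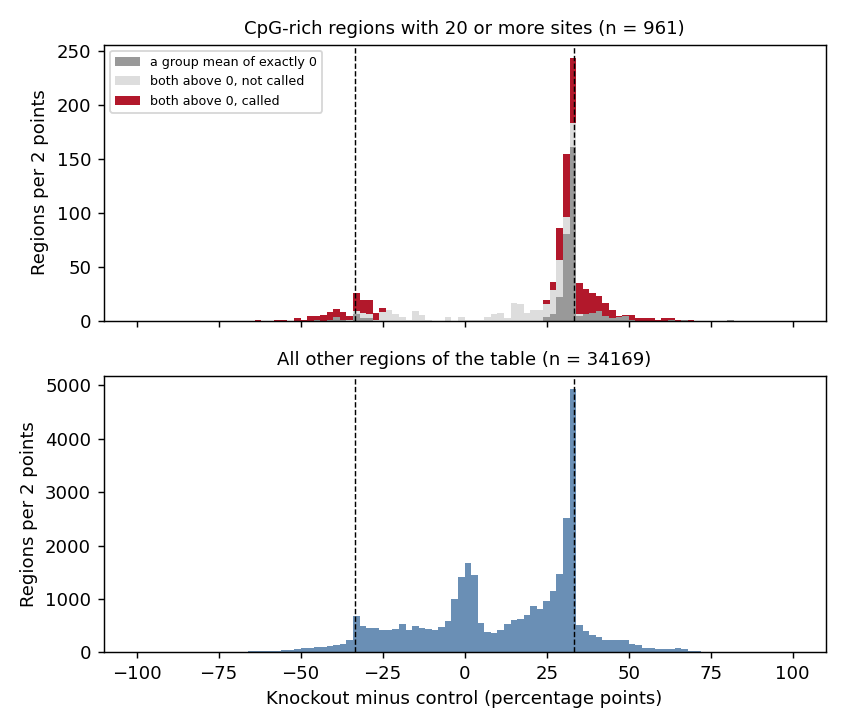
Number of regions (vertical axis, per 2 points) by knockout minus control difference (horizontal axis, percentage points), above for the 961 CpG-rich regions and below for all other regions; dashed lines mark 33.3 points in each direction. In the upper panel dark grey marks a group mean of exactly 0, light grey other regions not called and red called regions; the counts drop sharply beyond the dashed lines.

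No region with a group mean of exactly 0 was called. The control mean was 0 in 315 CpG-rich regions and the knockout mean in 16, and in all 331 the Kolmogorov-Smirnov p of the authors' deposited table was 1. Because q rose with that p, these 331 regions could not be called whatever their difference. Their Mann-Whitney p was at most 0.0021. Of the 315, 260 had a knockout level between 28% and 33.3%. After Benjamini-Hochberg adjustment of the Mann-Whitney p over all 35130 regions, 259 of the 331 passed 0.01 with at least 25 points. By that adjustment 674 of the 961 were called, against 8.7% of all regions, with 567 higher (6.38% of all regions) and 107 lower (2.31%). By adjustment of the Kolmogorov-Smirnov p 264 were called against 4.12% of all regions, with 190 higher (2.79% of all) and 74 lower (1.32%). The 3 widest differences with a 0 were chosen after seeing their values: they lay at RASSF10, a Ras-association gene known to be methylated in leukemia, EVX1, a homeobox gene beside the HOXA cluster, and SLC30A10, a manganese transporter gene. The RASSF10 region had 0% in control cells and 80.2% in knockout cells over 22 sites (chromosome 11, 13009645 to 13009717, 329 bases from a gene end). The region 3766 bases outside EVX1 had 0% and 67.4% (chromosome 7, 27251596 to 27251685, 22 sites). SLC30A10 had 0% and 62.1% (chromosome 1, 219927869 to 219927944, 26 sites). None of these was called, with q = 1 in the authors' deposited table, although they exceed most of the called gains in size.

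The largest called loss in the authors' deposited table was at SLC6A20, an amino acid transporter gene, 85 bases from its start (chromosome 3, 45796171 to 45796451). Its 23 sites had 76.4% in control cells and 13.0% in knockout cells, and fell by 63.5 points (q = 1.36e-10). Inside SYT7, a synaptotagmin gene of vesicle release, 21 sites went from 89.3% to 33.2% (chromosome 11, 61567744 to 61567817). A region 825 bases from the start of EBF3, an early B-cell factor of neural development, went from 56.4% to 1.52% over 22 sites (chromosome 10, 129965099 to 129965259), the lowest end among the 10 largest losses. MNX1 came next, over the 44 sites of the region shown with its promoter (q = 1.4e-11). These 4 regions had little else in common: 2 lay within 100 bases of their gene's start, 1 in a gene interior and 1 outside its gene.

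The other 6 of the 10 largest called losses ended between 8.28% and 31.0%. SLC1A2, the main glutamate transporter gene of glia, went from 81.9% to 31.0% (chromosome 11, 35419133 to 35419223), and KCNA3, a potassium channel gene, from 64.1% to 15.8% at 295 bases outside the gene. DUSP4, a MAP kinase phosphatase gene, went from 58.4% to 11.6% (chromosome 8, 29348157 to 29348356). PTPRG, a receptor tyrosine phosphatase gene, went from 71.9% to 25.5% at 809 bases from its start, and NFIB, a nuclear factor I gene, from 54.5% to 8.28% at 174 bases from a start. SKOR2, a transcriptional corepressor gene of the cerebellum, went from 69.4% to 23.2%. The losses at SYT7, SLC1A2, KCNA3, PTPRG and SKOR2 lay in short regions of 28.4 to 38.5 sites per 100 bases.

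The largest called gains started between 2.67% and 30.1% in control cells, by the authors' deposited table. The first lay 3867 bases outside the noncoding gene LINC02747 (chromosome 11, 69471638 to 69471737), where 20 sites went from 4.76% to 72.8% (q = 3.26e-10). PTPN3, a cytoplasmic tyrosine phosphatase gene, followed with 28 sites that went from 9.52% to 74.8% at 349 bases from a start (chromosome 9, 109497879 to 109497958, q = 1.52e-12). AJM1, an apical junction gene, went from 15% to 78.2% over 20 sites (chromosome 9, 136845025 to 136845105). FAM162B went from 13.9% to 75.6% at 117 bases from its start (chromosome 6, 116765519 to 116765602). All 4 ended between 72.8% and 78.2%.

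The other 6 of the 10 largest called gains ended between 60.9% and 86.4%. A region 2046 bases from the noncoding gene LOC124900815 went from 9.57% to 70.2%; the nearest coding start in the annotation, at 7743 bases, is that of HAND2, a heart and limb factor. FAM20C, a kinase gene of secreted proteins, went from 2.67% to 60.9% at 398 bases from its start (chromosome 7, 192969 to 193050), the lowest start among the 10. RXRA, the retinoid X receptor gene that pairs with many nuclear receptors, went from 16.6% to 73.1% in its interior. ENTPD2, an ectonucleotidase gene, went from 30.1% to 86.4% at 211 bases outside the gene, the highest end among the 10. The noncoding LOC105370680 went from 14.1% to 69.5%, and ANO1, a chloride channel gene, from 8% to 62.8% in its interior over 30 sites.

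The regions with the most sites all had a control level under 3% and a knockout level near 33%. LOC124902549, whose region lies 130 bases from the start of the neuregulin gene NRG3, had 81 sites at 2.39% in control cells and 35.0% in knockout cells (chromosome 10, 81874461 to 81875064) and was called with q = 1.73e-10 in the authors' deposited table. AJAP1, an adherens junction gene, had 75 sites at 1.07% and 33.1% across its start and was called. SALL3, a spalt zinc finger gene of limb and neural development, also had 75 sites across its start, at 0% and 32.7%, and was not called. C1QTNF4 had 68 sites at 0% and 32.7% and BAHCC1 67 sites at 0% and 32.5%, and neither was called. The 5 regions were all 32.0 to 32.7 points higher in knockout cells, and the 3 not called were those with a control mean of 0. The 3 densest regions were short: INSYN1 (69.0 sites per 100 bases, 38.3% in control cells, 8.90% in knockout cells, called lower), SKOR2 (60.6, 5% and 42.3%, called higher) and CUX2, a cut-homeobox gene (58.5, 21.5% and 9.38%, not called).

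Few of the deposited CpG-rich regions were alike in both groups. Among regions as dense, 35% were under 10 points apart at 5 to 7 sites and 19.9% at 8 to 11. At 12 to 19 sites 6.78% were. How the deposited regions were drawn is not given, so CpG-rich DNA outside them is not described. Above 50% in control cells, the smallest differences were at SCAF1 (51.3% in control cells, 66.5% in knockout cells), UTS2R, the urotensin receptor gene (97.5% and 81.7%), and ABHD17C (62.3% and 80.2%), none of them called. Between 20% and 50% they were at FGF18, a fibroblast growth factor gene (27.7% and 33.0%), AP1S3 (26.9% and 15.04%) and NOX5, an NADPH oxidase gene (20.5% and 32.4%), again not called. LRRC4, a synaptic adhesion gene, had the longest region of all, named after seeing its values, 669 bases with 58 sites, at 13.3% in control cells and 13.0% in knockout cells.

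Homeobox genes and the other developmental transcription factors on the lists held 46 and 39 of the 961 CpG-rich regions, with calls in both directions. Against the 39.5% called among all CpG-rich regions, homeobox genes, which set position and cell identity, had 17 of 46 regions called (37.0%), 8 lower and 9 higher, at 36 of 196 listed genes. Their median difference was 29.6 points, against 31.3 for all CpG-rich regions. Between 28 and 33.3 points higher lay 22 of these 46 regions and 17 of the 39 below, against 49.0% of all CpG-rich regions. HOXD8, a homeobox gene of body patterning, went from 69.3% in control cells to 26.8% in knockout cells over 21 sites (chromosome 2, 176130551 to 176130614), and PRRX2, of limb mesenchyme, from 68.5% to 29.7%. HMX1, a sensory organ factor, had 42 sites at 0% and 42.8%, and SIX2, a kidney progenitor factor, 50 sites at 0% and 40.9%; neither was called. The other developmental transcription factors had 16 of 39 regions called (41.0%), 6 lower and 10 higher, with a median difference of 30.8 points. FOXA2, an endoderm pioneer factor, went from 8.57% to 59.6% over 21 sites (chromosome 20, 22585349 to 22585422). ID4, an inhibitor of bHLH factors that is often methylated in leukemia, went from 49.2% to 7.84% over 42 sites. CASZ1, a zinc finger factor, had a region at 0% and 50.1% that was not called. Its other region, of 32 sites, went from 35.3% to 2.08% and was called lower.

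Signalling genes had 6 of 13 regions called (46.2%), at 11 of 117 listed genes, with a median difference of 30.9 points. All 6 were higher in knockout cells. Among all CpG-rich regions 39.5% were called and 75% of calls were higher, and differences from these shares were not tested. IHH (84.8% in control cells, 54.9% in knockout cells) and WNT6 (53.2% and 33.2%) were lower and not called. WNT9B, a WNT ligand, went from 8.10% to 46.7% over 56 sites, FZD6, a WNT receptor, from 18.4% to 51.9%, DHH, a hedgehog ligand, from 11.8% to 44.8%, and GDF1, a ligand of left-right patterning that overlaps CERS1, from 8.94% to 42.0%. NOTCH1, a receptor, had 0% and 31.7% and was not called. The 15 regions of cell adhesion and axon guidance genes had 4 called (26.7%, against 39.5% of all CpG-rich regions), 1 lower and 3 higher. PCDH8, a protocadherin, went from 40.8% to 3.40%, while PLXND1, a semaphorin receptor (0% and 33.2%), and CDH2, N-cadherin (0% and 32.8% over 38 sites), were not called. Channels, transporters and receptors of excitable cells had 18 of 38 called (47.4%, against 39.5% of all CpG-rich regions), 6 lower and 12 higher. Of the 38, 22 were 28 to 33.3 points higher, against 49.0% of all CpG-rich regions. Beside SLC6A20, SYT7 and KCNA3, GRID1, a glutamate receptor gene, went from 23.1% to 67.7%, PTPRN2, of secretory granules, from 71.1% to 29.9%, and OPRL1, the nociceptin receptor, from 36.1% to 75.9% where it overlaps LKAAEAR1. Another PTPRN2 region, of 26 sites in the gene interior, went from 13.6% to 45.8% and was called higher.

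Zinc finger genes had 10 of 19 regions called (52.6%), all higher in knockout cells, with a median difference of 32.6 points, against 39.5% called and 75% of calls higher among all CpG-rich regions; the difference was not tested. ZSCAN1, at 31.9% in control and 0% in knockout cells, was the lower one and, with a mean of 0, was not called. ZNF565 went from 29.97% in control cells to 69.5% in knockout cells, ZNF414 from 11.8% to 47.9%, and ZNF318 from 54.8% to 88.6%. Tumor suppressor genes known for methylation in leukemias had 5 of 6 regions called, at 5 of 39 listed genes, against 39.5% of all CpG-rich regions and 6.74% of the table, a difference that was not tested. The regions at ID4, HIC1 and LATS2 had 41 to 46 sites, and of CpG-rich regions with 40 to 81 sites 54.7% were called. A group mean of 0 stood in 1 of the 6, against 34.4% of all CpG-rich regions. ID4, also counted above, was the 1 loss. HIC1, a repressor of growth, had 2 gains, from 4.29% to 41.5% over 46 sites and from 0.813% to 31.7% over 41 sites. MGMT, a DNA repair gene, went from 1.19% to 29.1% across a gene end, and CDKN1C, a cell cycle inhibitor, from 11.9% to 37.4%, just past the threshold of 25 points. Imprinted genes, methylated on 1 parental copy at control regions, had 3 of 8 called (37.5%), all higher and with CDKN1C among them. Of the 8, 6 were 28 to 33.3 points higher, against 49.0% of all CpG-rich regions, which was not tested. ZDBF2 went from 8.92% to 41.5% and IGF2R from 2.64% to 30.7%, while the 2 regions at MEST had 0% in control cells and 33.0% and 33.2% in knockout cells and were not called.

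None of the 26 megakaryocyte and platelet genes listed had one, so the megakaryoblastic identity of the line was not described by these regions, and none of 192 ribosomal, histone and housekeeping genes did. Among 22 erythroid genes only ANK1, a membrane skeleton gene, did, with 4 regions: 1 was called, from 43.5% to 13.8% over 35 sites, and beside it lay one at 45.1% and 0% that was not. The other 2 went the other way, at 0% and 33.8% and at 0% and 30.3%, and were not called, and the median difference of the 4 was 0.33 points. The lymphoid, granulocyte and monocyte genes had 4, of which 1 was called at LCK, a T-cell kinase gene (75.7% to 33.0%). Among 4 regions at stem and progenitor cell genes MN1, a leukemia-associated coactivator gene, was called from 4.51% to 36.6%, and LIN28B, a fetal RNA-binding protein gene (0% and 32.4%), was not. In each list with 4 regions 25% were called, against 39.5% of all CpG-rich regions, and the difference was not tested. DNMT3B, CBFA2T3 and GLIS2 had no such region. Of the CBFA2T3-GLIS2 related genes only MEGF10 did (30.5% and 58.9%, not called), and of the DNA methylation and Polycomb genes only JARID2, a Polycomb partner (0% and 32.7%, not called).

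Regions close to one another could differ in opposite directions. There were 35 pairs of neighbouring CpG-rich regions under 1000 bases apart, 24 with the same sign of difference and 11 with opposite signs, and in 4 pairs both regions were called, 3 of them with opposite signs. At MNX1 the 25 sites inside the gene went from 1.33% in control cells to 31.0% in knockout cells (chromosome 7, 157009857 to 157010056), and 497 bases on, the 44 sites across its start went from 77.0% to 25.5%. At SKOR2 20 sites went from 5% to 42.3% and 673 bases on 24 sites went from 69.4% to 23.2%. At AJAP1 the 75 sites across the start went from 1.07% to 33.1%, and 890 bases on 31 sites went from 54.2% to 14.95%. The pair with the same sign was at ABCG1, a cholesterol exporter gene, where regions of 47 and 24 sites that are 48 bases apart went from 6.83% to 45.05% and from 14.4% to 54.6%. At LCK 20 bases parted a called loss (75.7% to 33.0%) from a region with 0% and 42.9% that was not called. How the region limits of the table were drawn is not given.

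**Figure D5:**
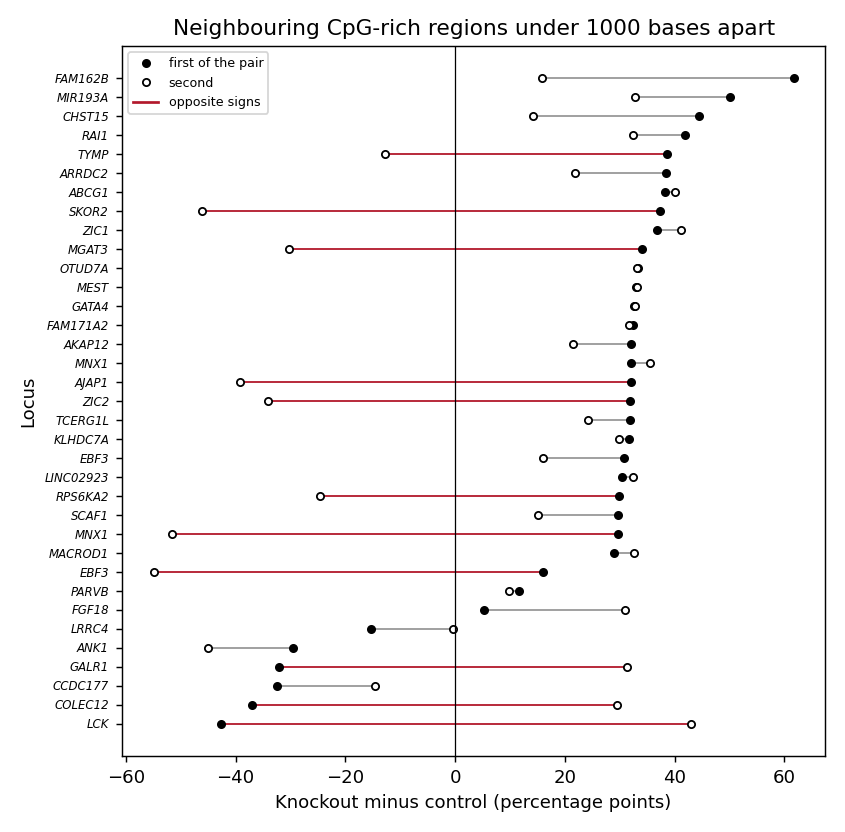
Knockout minus control difference (horizontal axis, percentage points) of both regions in each of the 35 pairs of neighbouring CpG-rich regions under 1000 bases apart, 1 pair per line, named by the gene assigned to the first; filled points are the first region along the chromosome, open points the second. Red lines join the 11 pairs with opposite signs.

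Of 990 genes with such a region 9 had 3 or more, among them EBF3, MNX1, GATA4 and ANK1 with 4 each. EBF3 and MNX1 held calls in both directions, while at GATA4, ABCG1, HMX1, LINC02923 and NEURL1B every region was higher in knockout cells. EBF3 had a gain in its interior from 32.2% to 69.3% beside its loss outside the gene, and 30 sites at 41 bases from its start at 12.4% and 28.4% that were not called. Its remaining region, of 25 sites inside the gene and 7 bases from a gene end, had 0% and 30.8% and was not called. ABCG1 had 3 called gains, the third from 6.60% to 42.0% over 49 sites (chromosome 21, 42234788 to 42235091). GATA4, a heart and endoderm factor, had 4 regions that were all 31.7 to 32.9 points higher in knockout cells, 2 of them called. Of all CpG-rich regions 49.0% were 28 to 33.3 points higher, so such differences are not particular to GATA4. HMX1 had 2 called gains beside the region with 0% in control cells, and NEURL1B 1 called gain among 3. Of the HMX1 gains, the one from 23.5% to 61.9% lay 21082 bases outside the gene. At SND1 none of 3 was called, and 2 of these also overlap LRRC4.

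By position, 529 regions (55.0%) lay no more than 1000 bases from a gene start or end, 347 elsewhere inside genes and 85 outside genes. At gene ends 238 were called (45%), 66 lower and 172 higher, in gene interiors 111 (32.0%), 27 lower and 84 higher, and outside genes 31 (36.5%), 2 lower and 29 higher. The difference between these shares was not tested. Regions with a group mean of 0 numbered 148 at gene ends, 150 in interiors and 33 outside. Across density, losses made up 17 of 103 calls at 8 to under 12 sites per 100 bases and 36 of 88 at 24 or more, while the median control level was 4.02% and 13.1%. Every autosome held such regions, from 16 on chromosome 21 to 76 on chromosome 1.

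At the limits of the rule, the 150 regions of exactly 20 sites and the 146 of 19 sites and the same density had the same share called (24.7% each), with median differences of 29.03 and 30.54 points. Just inside the density limit lay a region with 8 sites per 100 bases at 37.8% in control cells and 17.8% in knockout cells and one with 8.01 at 6.27% and 36.8%. Just outside lay one with 7.93 at 0% and 31.6% and one with 7.95 at 19.8% and 45.7%.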

How the data were processed

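Bismark, FastQC, HISAT2, methylKit and Trimmomatic, on hg38, stand in the submitters' processing notes without versions, roles or order. Which program made the regions was not given in the sources used here. For each region the authors deposited each group's mean methylation level as a percent, with no counts of reads, so depth is unknown. They also deposited the difference in points, a q-value, and p-values of a Mann-Whitney and a 2-dimensional Kolmogorov-Smirnov test, per the file headers, and a count of sites per region. For all 961 CpG-rich regions the difference matched M07e_3883 minus M07e_WT to within 0.01 points.

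Members, lists and tests were chosen with earlier results of these data known, and the lists support nothing by themselves. No new test per region was made: the table holds group means only, as the design allowed. Regions were assigned to every RefSeq gene they overlap, otherwise to the nearest within 50000 bases (956 of 961), and named by the coding gene among these whose start is nearest. Lists hold protein-coding genes; a few symbols that share only a prefix (EPHX, GRIP, GRINA, RPS6K, SCNM) were left out. Position uses either gene end, because the gene table has no strand. Promoter windows were matched by coordinates; windows of chromosome 8 were not used here, and a printed-promoter candidate among the gains is not reported here. Named are the 10 largest called losses and gains (1 per gene), the 5 regions with most sites, the 3 densest, the 3 least changed in each of 2 control ranges, up to 3 per list and genes with 3 or more members; further list examples were chosen after their values were seen. Alternatives covered thresholds, adjustments, the rule's limits, merging, zero means and gene-end distance. Benjamini-Hochberg adjustment and the interval of a median were tested on simulated data, and the exact binomial intervals were not. Python 3.11.15, pandas 2.3.3, numpy 2.4.6 and scipy 1.17.1 were used.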

Additional observations from a re-analysis of the deposited data

How the results depend on the processing

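The share of CpG-rich regions called, 39.5%, moved with the threshold. It was 43.0% at a difference of at least 10 points and 8.01% at 40 points (8.6% and 3.42% of all regions), 24.2% at q under 0.001 and 49.1% at q under 0.05 (3.31% and 10.5%), 27.5% with Benjamini-Hochberg adjustment of the Kolmogorov-Smirnov p (264 regions) and 70.1% with that of the Mann-Whitney p (674). With 15 or more sites it was 29.7% (631 of 2124 regions) and with 30 or more 54.7% (145 of 265). It was 55.6% without regions at 0 in one group and 25% to 33.3% in the other, 60.3% without any mean of exactly 0 and, chosen after seeing the data, 46.4% without differences of 28 to 33.3 points. The percent of calls that were higher in the knockout was 75%, against 67.8% over all called regions. It was 67.5% at 40 points, 84.1% by the Mann-Whitney p, 68.6% with 15 or more sites and 83.4% with 30 or more. The median difference of 31.32 points was 30.37 with 15 or more sites, 31.99 with 30 or more, 29.67 without 0 against 25% to 33.3% and 29.2 without any 0. The median control level of 5.94% was 9.28% with 15 or more sites and 12.22% and 13.42% under the latter exclusions, and the median knockout level of 32.86% was 33.07% with 30 or more sites and 36.54% and 36.05% under them. Within 500 bases of a gene end lay 43.1% of regions and within 2000 bases 67.3%. Leaving out means of exactly 0 raised the share called by construction, because no such region was called. A stricter threshold can only lower the share called, and a shorter distance the share near gene ends. For the other changes, those with the number of sites among them, the cause was not tested. A density of 12 or more, no density limit, X included and merging of neighbours left the share within its interval over regions, which are not replicates. The 20 largest called losses and gains kept their call at q under 0.001 and under both adjustments. Being chosen by size, all exceeded 40 points. The Kolmogorov-Smirnov adjustment is not independent of the main call, because q rose with that p. No paired analysis was possible because the table holds 1 mean per group, so no replicate could be left out either. Depth is unknown, and what it limits could not be measured.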
